A study of Mus musculus with 12 samples.

Results

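The genes described here are 9 genes of gluconeogenesis and hepatic glucose handling, Pck1, G6pc, Fbp1, Pklr, Slc2a2, Tat, Irs2, Gys2 and Pygl, out of 18194 genes with a probe set of their own on the array. They were chosen by name, and all 13 of their probe sets that carry a single gene symbol were taken. Affymetrix mouse arrays measured expression in C57BL/6 offspring aged 4 weeks, in the liver and the quadriceps muscle. There were 3 samples of the NP group and 3 of the NP+tau group for either tissue. Every dam received normal protein chow with 20% casein. Dams of the NP+tau group also had 1% taurine in the drinking water from day 1 of pregnancy until birth, while dams of the NP group had plain water. According to the methods, the 3 pups of a group came from different dams, and both tissues were taken from the same pup. The feeding state of the pups at death is not given in the sources used here. The comparison asks how these genes differed in 4-week-old pups after taurine supplementation of their mothers.

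Liver makes glucose from lactate, glycerol and amino acids during fasting and stores it as glycogen after a meal. Pck1 (phosphoenolpyruvate carboxykinase) and Fbp1 (fructose bisphosphatase) carry out the steps that bypass glycolysis, and G6pc (glucose 6-phosphatase) releases free glucose. Slc2a2 (GLUT2) is the glucose transporter of the hepatocyte membrane. Pklr encodes the pyruvate kinase of liver and red cells, the last enzyme of glycolysis, and Tat (tyrosine aminotransferase) feeds amino acid carbon into the pathway. Gys2 and Pygl are the liver forms of glycogen synthase and glycogen phosphorylase. Irs2 is an adaptor between the insulin receptor and its kinases. Glucagon, acting through cyclic AMP, and glucocorticoids raise transcription of Pck1, G6pc and Tat, insulin lowers that of Pck1 and G6pc, and carbohydrate feeding raises Pklr.

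The promoters of Pck1 and G6pc are shown because these genes of neighbouring function had the widest spread between NP+tau livers. The letters run 5′ to 3′ along the coding strand over the 250 bases before the transcription start, from the RefSeq promoter table for build GRCm38.p6, and capitals mark matches to the motifs searched. The Pck1 stretch is chr2:173152823-173153072, plus strand, and the G6pc stretch is chr11:101367466-101367715, plus strand.

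Pck1: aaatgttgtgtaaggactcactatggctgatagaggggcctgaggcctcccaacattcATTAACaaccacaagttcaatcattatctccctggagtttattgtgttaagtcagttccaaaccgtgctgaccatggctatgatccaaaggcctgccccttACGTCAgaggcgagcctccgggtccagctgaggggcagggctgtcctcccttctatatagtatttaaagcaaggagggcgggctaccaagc

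G6pc: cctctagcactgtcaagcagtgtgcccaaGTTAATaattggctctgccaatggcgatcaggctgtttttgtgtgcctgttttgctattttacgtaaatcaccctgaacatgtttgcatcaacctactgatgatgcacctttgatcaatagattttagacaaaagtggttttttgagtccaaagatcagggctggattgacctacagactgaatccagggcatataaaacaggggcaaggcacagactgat

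In Pck1, the capitals ACGTCA are the core of the cyclic AMP response element, TGACGT, read on the opposite strand. They begin 91 bases before the start. The capitals ATTAAC are the HNF1 motif GTTAAT on the opposite strand, 192 bases before the start. In G6pc, GTTAAT lies on the coding strand, 221 bases before the start. The table held 9 promoters of 8 member genes, with 2 starts for Pklr, and each was searched on both strands over 300 bases, the last 50 of them after the start. Besides the matches above, only Irs2 held a motif, the E box CACGTG beginning 44 bases before the start (window chr8:11008880-11009179, minus strand). No window matched the forkhead motif TGTTTAC or the glucocorticoid receptor motif TGTTCT. Among all 32851 promoters of the table, 7.51% held TGACGT, 7.10% GTTAAT, 7.15% CACGTG, 3.65% TGTTTAC and 19.0% TGTTCT. A match describes the letters of the window and was not tied to any value below.

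Values are log2 expression, so a difference of 1 is a 2-fold change, and differences are NP+tau minus NP with their standard error (SE) from limma. The array of NP+tau liver 1 deviated most: its values lay a median of 0.450 from the median array, where those of the 5 remaining livers lay between 0.0769 and 0.169. High Xist and low Eif2s3y, as in female mice, were found in all 3 NP pups and in 1 of 3 NP+tau pups (replicate 1), although the methods describe groups of both sexes. The samples of NP thus go against the methods, so the group labels are in doubt, and each difference below is between samples as labelled. NP+tau replicates 2 and 3 lacked this pattern, with Xist at 5.96 and 5.07 in liver where the NP pups read 11.63 to 11.78. In both tissues, diet and sex therefore cannot be fully told apart in any difference below. Hepatocyte markers averaged between 13.81 and 14.03 in all 6 livers. Of the members, 12 of 13 probe sets and all 9 genes passed the filter on dim probes in liver, and the Pck1 probe set 1455209_at did not, with values from 3.46 to 3.60. For genes with several probe sets, the one with the highest mean is given first.

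None of the 9 genes differed between the diet groups of liver beyond the spread between pups. By limma with Benjamini-Hochberg adjustment over 29274 probes, 0 of 12 member probe sets passed an adjusted p of 0.05, as did 0.0% of all probes tested. At an unadjusted p under 0.05 the count was also 0 of 12, beside 4.69% of all probes. Groups overlapped for all 12 probe sets, whereas 14.8% of all probes had groups that did not, 5.73% higher and 9.11% lower in NP+tau. Of the 9 genes, 4 had a difference above 0 and 5 below 0, beside 54.2% of all probes below 0. Their median difference was -0.04, close to that of all 14276 genes (-0.03).

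**Figure D1:**
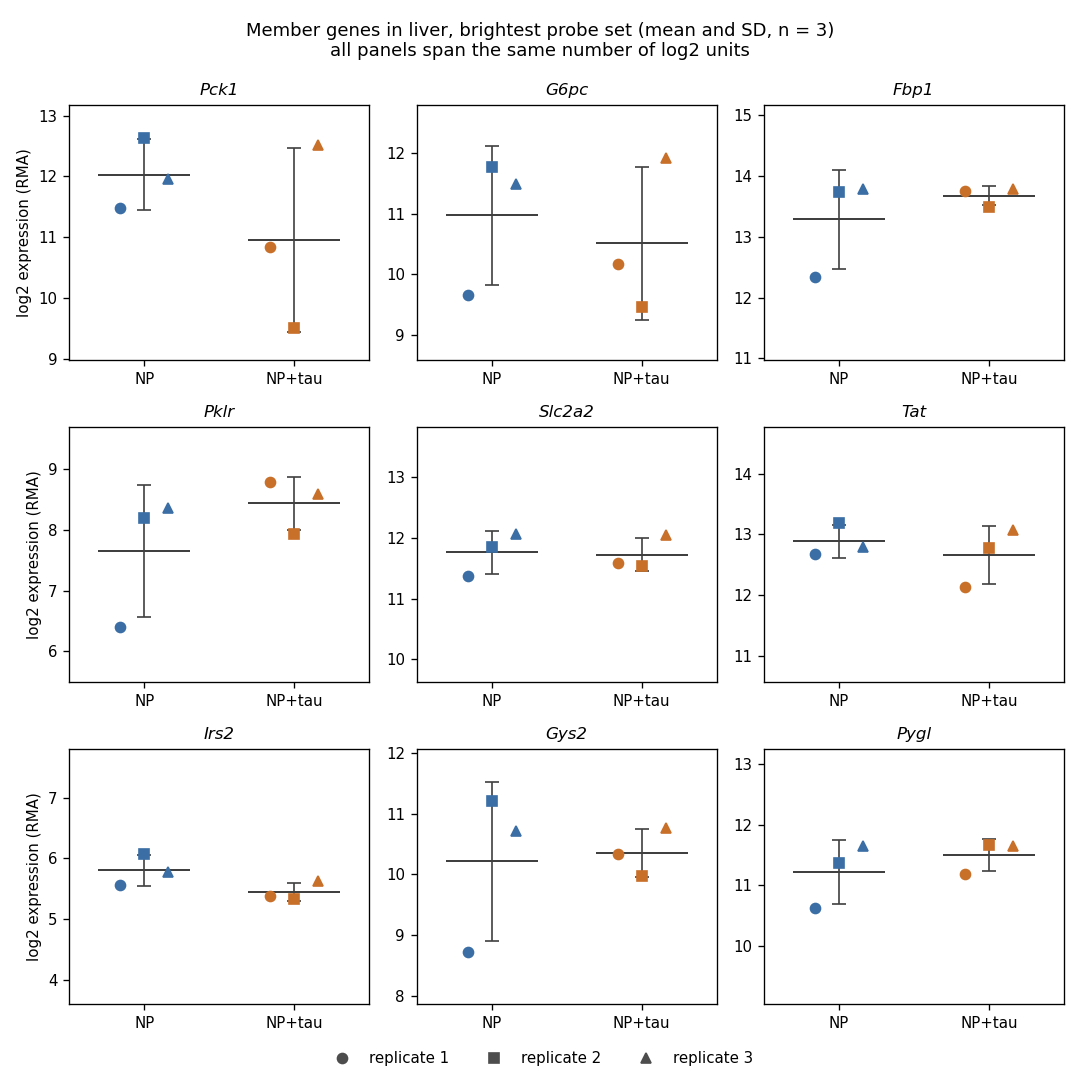
Log2 expression of the 9 member genes in liver, with the diet group on the horizontal axis, a marker for each replicate, and lines for the mean and SD of 3 samples. All panels span the same number of log2 units, and the groups overlap in each panel.

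Pck1 (probe set 1423439_at) read 11.48, 12.64 and 11.96 in NP livers 1 to 3 and 10.84, 9.51 and 12.52 in NP+tau livers 1 to 3. NP+tau replicates 1 and 2 thus lay below every NP liver, with replicate 2 lowest of all. NP+tau replicate 3 lay within the NP range, near its top. The mean was 12.03 ± 0.58 (SD, n = 3) in NP and 10.96 ± 1.51 in NP+tau, a difference of -1.07 (SE 0.72, 95% interval -2.79 to 0.65, adjusted p = 0.718). The other Pck1 probe set above the filter, 1439617_s_at, gave -1.19 (SE 0.88), and its livers ranked in the same order, from 8.56 in NP+tau replicate 2 to 12.48 in NP replicate 2. Leaving out 1 liver moved the first difference between -0.34 (without NP+tau replicate 2) and -1.85 (without NP+tau replicate 3). In the latter case both probe sets had an unadjusted p under 0.05 (0.0105 and 0.0209) and an adjusted p of 0.540.

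G6pc (1417880_at) read 9.66, 11.77 and 11.49 in the NP livers and 10.17, 9.45 and 11.91 in the NP+tau livers. Each group held low and high pups, and the lowest and the highest liver both belonged to NP+tau. The difference was -0.46 (SE 0.76, 95% interval -2.27 to 1.34, adjusted p = 0.808), and it was 0.06 without NP+tau replicate 2.

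Fbp1 (1448470_at) read 12.34, 13.73 and 13.79 in NP and 13.75, 13.50 and 13.79 in NP+tau. NP replicate 1 lay far below the other 5 livers, which were close together. The difference was 0.39 (SE 0.40, 95% interval -0.54 to 1.33, adjusted p = 0.729), and it was -0.08 without NP replicate 1. Slc2a2 (1449067_at) had the narrowest range of the 9 genes over the 6 livers, 0.69 log2 units, with 11.38, 11.84 and 12.07 in NP and 11.59, 11.54 and 12.04 in NP+tau. Its groups shared nearly the same range, and the difference was -0.04 (SE 0.25, 95% interval -0.62 to 0.55, adjusted p = 0.956).

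Pklr (1438711_at), on the glycolytic side, read 6.40, 8.19 and 8.35 in NP and 8.78, 7.94 and 8.59 in NP+tau. Again NP replicate 1 was the low liver, and the other 2 NP livers lay within the NP+tau range. The difference was 0.79 (SE 0.53, 95% interval -0.48 to 2.05, adjusted p = 0.718), against 0.64 (SE 0.40) and 0.28 (SE 0.32) for the probe sets 1421258_a_at and 1421259_at. Without NP replicate 1 the first of these values was 0.16, and without both replicates numbered 1 it was -0.01.

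Tat (1451557_at) read 12.68, 13.19 and 12.80 in NP and 12.14, 12.78 and 13.06 in NP+tau. Its lowest liver was NP+tau replicate 1, the array that deviated most. The difference was -0.23 (SE 0.28, adjusted p = 0.759), and it was 0.03 without that liver. With the Xist level as a covariate, Tat gave -0.86 (SE 0.26) with an adjusted p of 0.0504, the lowest adjusted p of any member under any setting run. In that fit 9449 of 29274 probes passed an adjusted p of 0.05, so the value does not set Tat apart. Its diet difference rests largely on NP+tau replicate 1, the only NP+tau liver with high Xist.

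Irs2 (1443969_at) read 5.56, 6.06 and 5.78 in NP and 5.38, 5.33 and 5.62 in NP+tau. Here the 2 lowest livers were NP+tau replicates 1 and 2, and only NP+tau replicate 3 and NP replicate 1 crossed over. With a difference of -0.36 (SE 0.20, 95% interval -0.82 to 0.11, unadjusted p = 0.114, adjusted p = 0.718), this was the member with the smallest unadjusted p in liver. The difference lay between -0.47 and -0.23 whichever liver was left out, and with array weights the unadjusted p was 0.0358 and the adjusted p 0.676.

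Gys2 (1424815_at) read 8.73, 11.20 and 10.71 in NP and 10.33, 9.97 and 10.76 in NP+tau. The NP group alone spanned 2.47 log2 units, from the lowest to the highest of the 6 livers. The difference was 0.14 (SE 0.62, adjusted p = 0.932), and -0.60 without NP replicate 1. Pygl (1417741_at) read 10.63, 11.37 and 11.65 in NP and 11.19, 11.66 and 11.65 in NP+tau. The 3 highest livers were practically level and came from both groups, and the difference was 0.28 (SE 0.30, adjusted p = 0.734), or -0.01 without NP replicate 1.

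**Figure D2:**
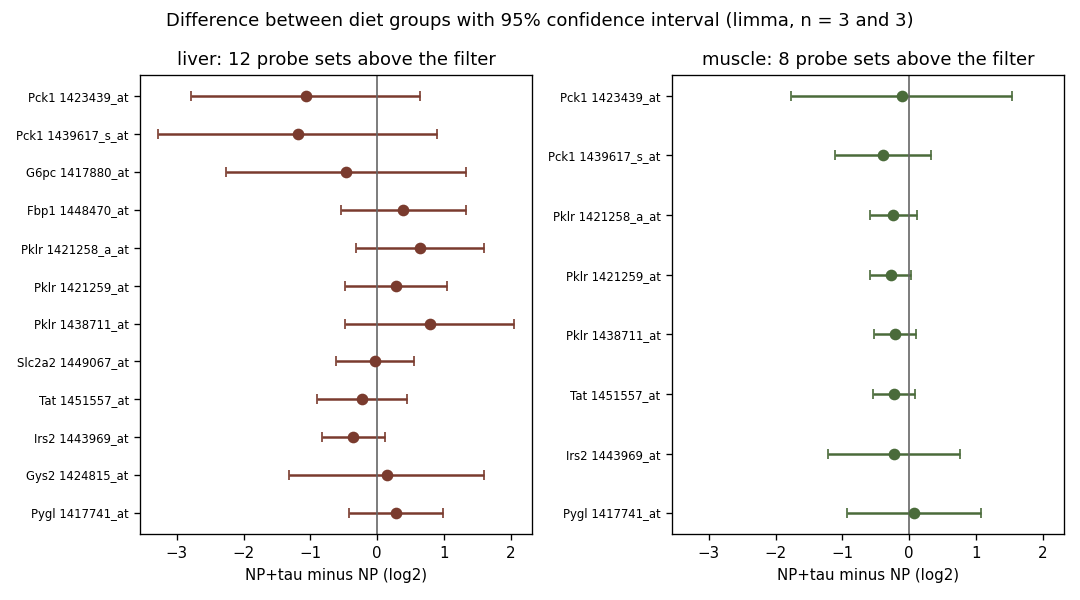
Difference between NP+tau and NP (horizontal axis, log2) for each member probe set above the filter, with points for the limma estimate and bars for its 95% confidence interval, in liver (left, 12 probe sets) and muscle (right, 8 probe sets). Every interval includes 0, and those of Pck1, G6pc and Gys2 in liver are the widest among the genes of that panel.

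The spread between single pups had a pattern over the members. NP replicate 1 was below the median of the 6 livers for 9 of 9 genes and the lowest liver for 5 of them, Fbp1, Pklr, Slc2a2, Gys2 and Pygl. In Pklr, Gys2 and Fbp1 it lay 1.87, 1.79 and 1.40 log2 units below the median, but in Irs2 only 0.03. NP+tau replicate 2 was below the median for 8 of 9 genes and lowest for Pck1, G6pc and Irs2, at -2.21 in Pck1 and -1.38 in G6pc. Both of these livers were low in G6pc, and only NP+tau replicate 2 was far below the median in Pck1, where NP replicate 1 lay at -0.24. NP replicate 3 and NP+tau replicate 3 were below the median for 0 of 9 genes. NP replicate 2 was the highest liver for 4 genes, Pck1, Tat, Irs2 and Gys2. This is a description of 6 animals, and no group of them was tested.

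**Figure D3:**
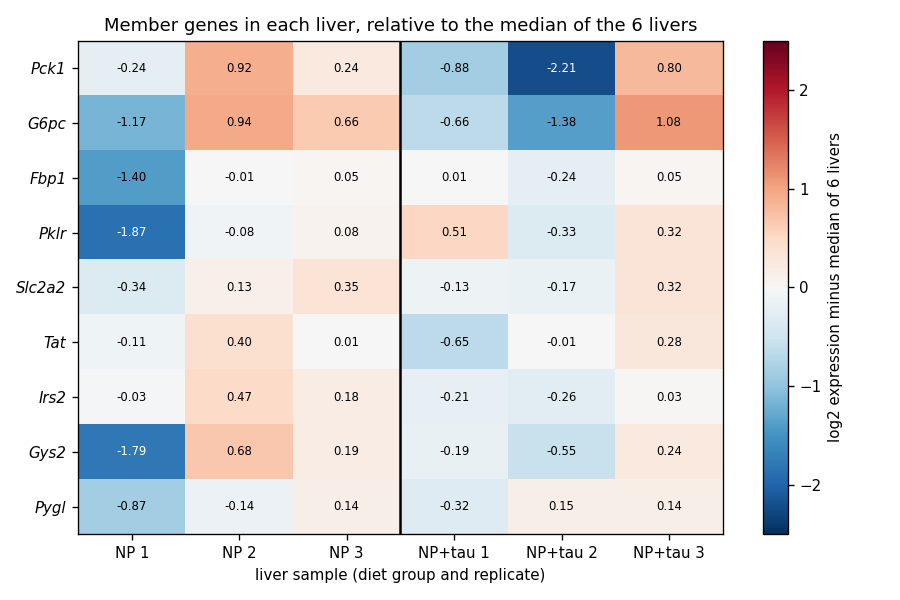
Log2 expression of each member gene (rows) in each liver (columns) minus the median of the 6 livers for that gene, with the value printed in each cell and red above and blue below the median. NP 1 is below the median in all 9 rows, and NP+tau 2 has the lowest cell of the plot, Pck1 at -2.21.

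Other measures moved with these pups. Feeding and carbohydrate induced genes averaged 9.39 in NP replicate 1 and between 10.41 and 10.95 in the other livers. Pericentral hepatocyte markers averaged 8.26 and 8.91 in NP replicates 1 and 2, and from 10.05 to 10.34 in the remaining 4 livers. Of these markers, 8 of 8 had a difference above 0, and 3 were higher at an unadjusted p under 0.05, beside 0.7% of all probes. Their median was 1.21, or 0.73 without NP replicate 1. In the latter fit 1 marker was higher at an unadjusted p under 0.05, beside 0.31% of all probes. Periportal hepatocyte markers were also lowest in NP replicate 1 (10.14, with 10.52 to 11.20 in the other livers). Of these, 4 of 5 had a difference below 0, with a median of -0.07. The 1 periportal marker at an unadjusted p under 0.05 was higher in NP+tau. Without NP+tau replicate 1, 2 of 5 were below 0 and the median was 0.04. Neutrophil markers averaged 9.22 in NP replicate 1 and 5.15 to 6.49 elsewhere. In NP+tau replicate 2, fasting and glucocorticoid induced genes averaged 8.46, the lowest of the livers, where the others lay between 8.68 and 9.49. In whole tissue, fewer cells of a type and less RNA per cell cannot be told apart, and the part of these measures in the members' values was not tested.

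For the 7 members that spanned more than 1 log2 unit over the livers, the most similar genes were sought by the root mean square distance between centred values of the 6 livers. Fbp1 was closest to Decr2 (0.0755), Slc38a3 (0.0794) and Acsm3 (0.104), and each of these also had its lowest value in NP replicate 1. Pklr was closest to Ghr, the growth hormone receptor (0.110), which read 9.06 in NP replicate 1 and 10.67 to 11.36 elsewhere. Gys2 was closest to Slc25a25 (0.109) and Lss (0.121). Tat was closest to Zfp383 (0.0562) and Pygl to Naa60 (0.0663). Pck1 and G6pc had no close match: their nearest genes, Apoa5 and Abca8a, were 0.462 and 0.419 away. These distances describe 6 livers and carry no test.

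In quadriceps muscle, 8 of 13 member probe sets and 5 of 9 genes passed the filter, whose limit was 4.49. G6pc, Fbp1, Slc2a2 and Gys2 did not, with values between 3.44 and 4.35 in all muscles. Levels were not compared between tissues, because the arrays of each tissue were normalised apart. Of the 8 probe sets, 0 passed an adjusted p of 0.05, as did 0.0% of all 29274 probes tested, and 0 had an unadjusted p under 0.05, beside 6.12% of all probes.

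Pck1 varied widely between muscles too, with 6.08, 7.57 and 5.67 in NP and 6.12, 5.23 and 7.64 in NP+tau. The lowest and the highest muscle both belonged to NP+tau, as replicates 2 and 3, and the difference was -0.11 (SE 0.70, adjusted p = 0.964). Adipocyte markers in the same muscles averaged 8.49, 8.51 and 8.02 in NP and 7.89, 7.56 and 8.34 in NP+tau. They were lowest in NP+tau replicate 2 as well, 6 of 7 had a difference below 0, and their part in the Pck1 values was not tested. Irs2 read 7.997, 7.17 and 6.34 in NP and 6.70, 7.41 and 6.73 in NP+tau. The NP muscles enclosed all 3 NP+tau muscles, with a difference of -0.22 (SE 0.42, adjusted p = 0.869). Pygl, at 6.18, 6.26 and 7.18 in NP and 6.43, 5.97 and 7.44 in NP+tau, had a high replicate 3 in both groups and a difference of 0.08 (SE 0.43, adjusted p = 0.959).

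Pklr (1421259_at) was narrow in muscle, with 5.94, 5.94 and 5.80 in NP and 5.67, 5.64 and 5.56 in NP+tau. Every NP+tau muscle was below every NP muscle, with a difference of -0.27 (SE 0.13, 95% interval -0.58 to 0.04, unadjusted p = 0.0745, adjusted p = 0.707). The other 2 probe sets of Pklr also had groups that did not overlap, at -0.24 (SE 0.15) and -0.21 (SE 0.13). Tat had the same separation, with 5.15, 5.20 and 4.98 in NP and 4.84, 4.91 and 4.92 in NP+tau and a difference of -0.22 (SE 0.13, adjusted p = 0.708). In all, 4 of 8 probe sets, of 2 genes, were lower in NP+tau without overlap, where 7.77% of all probes were so and 7.33% were higher. Of these 4, 3 measure the same gene. Differences were below 0 for 7 of 8 member probe sets, beside 48.2% of all probes. These Pklr and Tat values lay between 4.29 and 5.94, near the filter limit. Hepatocyte markers in muscle averaged 4.93, 5.19 and 4.72 in NP and 4.97, 4.59 and 4.63 in NP+tau, with 7 of the 8 above the filter below 0, and their part in the Pklr and Tat values was not tested.

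**Figure D4:**
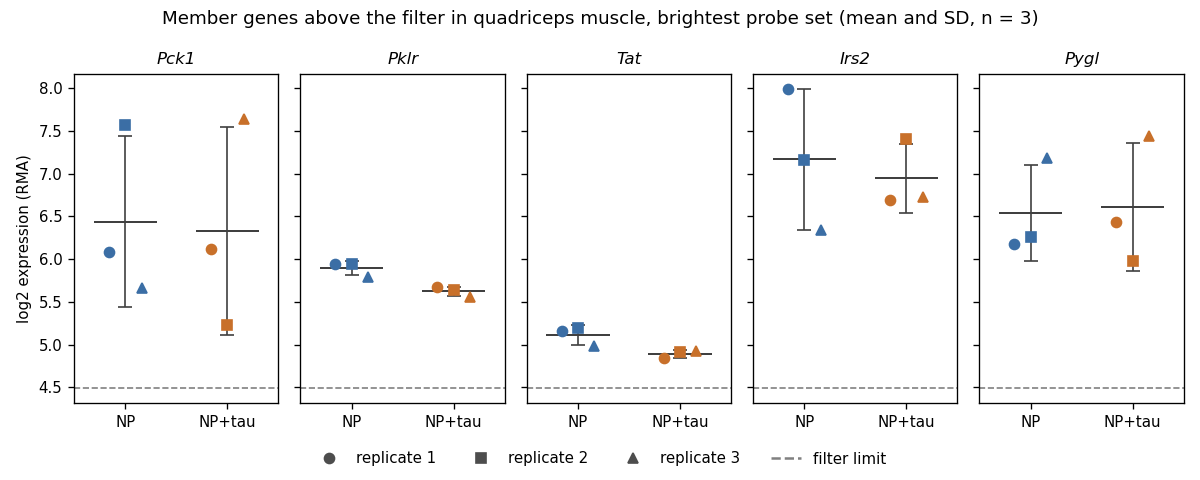
Log2 expression of the 5 member genes above the filter in quadriceps muscle, with the diet group on the horizontal axis, a marker for each replicate, lines for the mean and SD of 3 samples, and a dashed line at the filter limit of 4.49. The groups are apart for Pklr and Tat, which lie near that limit, and overlap for Pck1, Irs2 and Pygl.

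The differences in liver and muscle were set against each other in an interaction test. It treated the arrays as independent, although both tissues came from the same pup according to the methods. Of the 8 member probe sets above the filter in both tissues, none passed, with adjusted p from 0.542 to 0.995. At an unadjusted p under 0.05 there were 0, beside 7.8% of 25622 probes (0.0% at an adjusted p of 0.05). For Pklr, higher on average in NP+tau liver and lower in NP+tau muscle, the liver difference minus the muscle difference was 0.55 (SE 0.36) at 1421259_at, 0.88 (SE 0.46) at 1421258_a_at and 0.99 (SE 0.59) at 1438711_at. For Tat it was -0.01 (SE 0.32).

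The other genes of the pathway were taken from 9 lists by function, at the brightest probe set of each gene above the filter. In liver, 0 of 154 genes passed an adjusted p of 0.05. At an unadjusted p under 0.05, 2 were higher and 19 lower in NP+tau, beside 0.7% of all probes higher and 3.99% lower. In muscle, 0 of 143 genes passed the adjusted threshold, and at an unadjusted p under 0.05 there were 8 higher and 4 lower genes, beside 3.72% and 2.4% of all probes. For each gene named below with an unadjusted p under 0.05, the adjusted p was 0.718 in liver and 0.707 in muscle.

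Of 36 regulators of hepatic glucose genes measured, 1 was higher and 3 were lower at an unadjusted p under 0.05 in liver, with a median difference of -0.01. Without NP+tau replicate 1 the count was 3 higher and 2 lower, and without both replicates numbered 1 it was 2 higher and 1 lower. Ppargc1a, the coactivator PGC-1α that drives Pck1 and G6pc in fasting, read 7.85, 7.99 and 7.24 in NP livers and 6.08, 5.38 and 7.16 in NP+tau livers. All NP+tau livers were below all NP livers, with NP+tau replicate 2, the liver lowest in Pck1 and G6pc, lowest here too. Not all livers ranked alike. NP replicate 1, low in G6pc (9.66), read 7.85 in Ppargc1a, and NP+tau replicate 3, highest in G6pc (11.91), read 7.16. The part of Ppargc1a in the Pck1 and G6pc values was not tested. The Ppargc1a difference was -1.49 (SE 0.45, unadjusted p = 0.0138). Nr4a1, an orphan nuclear receptor induced by cyclic AMP, gave -0.87 (SE 0.23) and Crebbp, the CREB binding protein, -0.67 (SE 0.26). Onecut1 (HNF6) gave 0.99 (SE 0.40), with its highest value, 7.83, in NP+tau replicate 1. Foxo1, Hnf4a and Nr3c1, the glucocorticoid receptor, gave 0.00 (SE 0.24), -0.13 (SE 0.21) and -0.10 (SE 0.22), with groups that overlapped. In muscle an unadjusted p under 0.05 was reached by 4 regulators that were higher and 1 that was lower, among them Prkaa1, a catalytic subunit of AMP kinase (0.79, SE 0.24), and Nr4a3 (1.03, SE 0.31).

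In insulin and glucagon signalling, the pathway of Irs2, 5 of 26 genes were lower at an unadjusted p under 0.05 in liver and 0 higher. Differences were below 0 in 21 of 26, with a median of -0.37, where 53.5% of all genes were below 0. Grb10, an adaptor that restrains the insulin receptor, gave -1.27 (SE 0.38), and Socs3, a suppressor of cytokine signalling, gave -1.09 (SE 0.36). Igf1r gave -0.77 (SE 0.25), and Pde4d, a cyclic AMP phosphodiesterase, -1.38 (SE 0.48). In muscle 0 of 23 genes had an unadjusted p under 0.05, and the median was 0.02. Without NP+tau replicate 1, the liver count was 3 lower, 18 of 26 below 0 and a median of -0.17. Without NP replicate 1 it was 3 lower and 22 below 0, with a median of -0.42.

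Glycolysis and glucose phosphorylation, the list of Pklr, had an unadjusted p under 0.05 in liver for 5 of 17 genes, all lower in NP+tau, with a median of -0.14. They included Hk1 and Hk2, the low-Km hexokinases (-0.61, SE 0.19, and -1.03, SE 0.28), Pkm, the pyruvate kinase of most other tissues (-1.20, SE 0.44), and Pfkp, a phosphofructokinase (-2.33, SE 0.68). Pfkp read 9.44, 7.42 and 6.52 in NP livers and 5.66, 5.49 and 5.25 in NP+tau livers, so all 3 NP livers were higher and NP replicate 1 most of all. Among the transporters, 2 of 9 genes were lower, Slc2a1 or GLUT1 (-0.73, SE 0.26) and Slc2a3 or GLUT3 (-1.71, SE 0.54), with a list median of 0.11. Without NP+tau replicate 1, the counts were 3 lower and 1 higher for glycolysis and 0 for the transporters, and without NP replicate 1 the transporters had 1 lower and a median of -0.0022. In muscle, Pfkfb4 (0.83, SE 0.25) and Slc2a5 (-0.39, SE 0.16) were the only genes of these lists at an unadjusted p under 0.05.

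These isoforms are carried by many cell types. List averages of macrophage, neutrophil, stellate cell and erythroid markers were lower in every NP+tau liver than in any NP liver. Of 11 macrophage and Kupffer cell markers, 11 had a difference below 0 in liver and 9 an unadjusted p under 0.05, and the list averaged between 9.11 and 9.98 in NP livers and between 7.62 and 8.68 in NP+tau livers. Marco, a Kupffer cell receptor, read 10.26, 9.23 and 9.77 in NP and 7.99, 6.91 and 8.22 in NP+tau. Of 9 neutrophil markers, 7 were below 0 and 4 had an unadjusted p under 0.05, with list averages between 6.41 and 9.22 in NP livers and between 5.15 and 5.70 in NP+tau livers. Stellate cell and fibroblast markers had 5 of 7 below 0 and 3 at an unadjusted p under 0.05, and averaged between 8.59 and 9.03 in NP livers and between 7.85 and 8.49 in NP+tau livers. That count was 0 without NP replicate 1 and 2 without both replicates numbered 1. Endothelial averages overlapped, between 7.60 and 8.02 in NP livers and between 7.05 and 8.05 in NP+tau livers. Of 7 endothelial markers, 5 were below 0 and 0 had an unadjusted p under 0.05. The 3 erythroid markers measured, 2 of them below 0, averaged between 6.67 and 7.19 in NP livers and between 5.89 and 6.45 in NP+tau livers. Without both replicates numbered 1, 10 of 11 macrophage markers and 6 of 9 neutrophil markers were lower at an unadjusted p under 0.05, beside 3.27% of all probes. In that fit S100a8 (-3.10, adjusted p = 0.0228) and S100a9 (-2.65, adjusted p = 0.0144), chosen after their values were seen, were among the 9 of 29274 probes that passed by limma. The NP livers left in it had high Xist (11.63 and 11.78) and the NP+tau livers low Xist (5.96 and 5.07). Diet and sex thus cannot be told apart in that fit. The part of these cells in the lower values of Hk1, Hk2, Pfkp, Pkm, Slc2a1 and Slc2a3 was not tested.

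The remaining steps of gluconeogenesis had 0 of 12 genes at an unadjusted p under 0.05 in liver. Differences were below 0 in 10 of 12 with a median of -0.20, but in 6 of 12 with a median of -0.01 without NP+tau replicate 1. In the latter fit 1 of 12 was lower at an unadjusted p under 0.05, beside 3.07% of all probes. Pcx (pyruvate carboxylase), which opens the pathway, read 10.43, 10.98 and 10.99 in NP and 10.46, 10.74 and 11.07 in NP+tau, a difference of -0.05 (SE 0.24). In muscle, Mdh1, the cytosolic malate dehydrogenase, was the only gene of this list at an unadjusted p under 0.05 (0.46, SE 0.19). In glycogen metabolism, the list of Gys2 and Pygl, 1 of 17 genes was lower, Pygb, the brain form of glycogen phosphorylase (-0.57, SE 0.21), and 0 were without NP replicate 1. Its list had a median of -0.19 in liver and 0.13 in muscle, where Epm2a (laforin) was the only gene at an unadjusted p under 0.05 (-0.48, SE 0.19).

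Among genes for the entry of amino acids, lactate and glycerol, the list of Tat, 2 of 15 were lower in liver and the median was 0.17. Got1, the cytosolic aspartate aminotransferase, read 12.05, 12.82 and 12.32 in NP and 11.56, 11.32 and 12.003 in NP+tau. Its groups did not overlap, with a difference of -0.77 (SE 0.27), and Gpt2, an alanine aminotransferase, gave -0.75 (SE 0.28). Without NP+tau replicate 1 the count was 2 higher and 0 lower, and without NP replicate 1 it was 1 lower with a median of -0.06 and 10 of 15 genes below 0. Fasting and glucocorticoid induced genes had 3 lower and 1 higher of 14, with a median of 0.08. That median turned to -0.20 without NP replicate 1 (3 lower and 0 higher), -0.06 without NP+tau replicate 1 and -0.31 without both. Besides Ppargc1a, these were Asns, asparagine synthetase (-1.82, SE 0.53), Igfbp1, a secreted binding protein that insulin represses (-1.53, SE 0.59), and Angptl4, an inhibitor of lipoprotein lipase (0.72, SE 0.29). Igfbp1 read 13.60, 13.77 and 13.01 in NP livers and 10.65, 12.01 and 13.14 in NP+tau livers, so that its NP+tau replicate 3 lay within the NP group. Feeding and carbohydrate induced genes had 0 of 12 at an unadjusted p under 0.05 and a median of 0.26, which was 0.09, with 1 gene higher, without NP replicate 1. In muscle, Gadd45g (1.19, SE 0.24) and Me1, malic enzyme (0.69, SE 0.20), were higher and Txnip (-0.91, SE 0.32) was lower at an unadjusted p under 0.05.

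**Figure D5:**
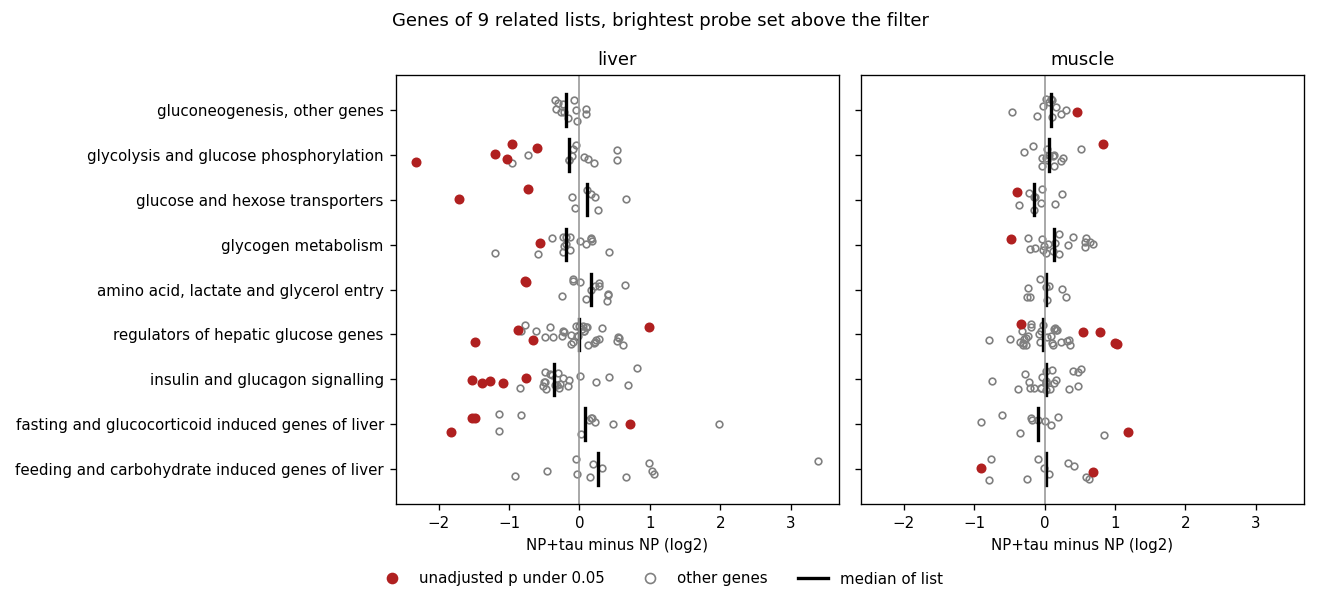
Difference between NP+tau and NP (horizontal axis, log2) for the genes of 9 lists (rows) in liver (left) and muscle (right), with a circle for each gene, filled red where the unadjusted p was under 0.05, and a black bar at the median of the list. A gene on several lists has a circle in each of them. With each gene counted once, 19 of 154 genes in liver are red on the left of 0 and 2 on the right. None of these passed the adjusted threshold.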

How the data were processed

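Liver and quadriceps muscle had 3 NP and 3 NP+tau samples each, grouped by the sample titles. According to the methods, the authors normalised the arrays of each tissue apart by quantiles and summarised them with justRMA (R and Bioconductor). The deposited values are log2 expression for 45101 probes, 64 of them controls, which were removed here. Depth has no meaning for arrays: their number limits the precision. Newborn samples were not analysed here.

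Gene symbols came from the platform's probe annotation (34958 probes with 1 symbol, 932 with several and 9211 with none). Dim probes, whose highest value in a tissue was under the 35th percentile of such values, were filtered out (limit 4.60 in liver and 4.49 in muscle). NP+tau was compared with NP with the moderated test of limma 3.58.1 (lmFit, eBayes; R 4.3.3), two-sided, with Benjamini-Hochberg adjustment over the probes kept, and the tissue difference as an interaction over 25622 probes. The scripts were tested on simulated data. Members, lists and tests were chosen with earlier results of these data known. The named genes are all members and, from each list, the genes with the smallest unadjusted p (up to 4 in liver and 2 in muscle), beside a few of the list named as background. Marker lists were written by hand, and 11 cell types were examined. Alternatives were no filter, a 50th percentile filter, an intensity trend, array weights, array centring, a replicate block, Xist level as covariate, the mean over probe sets, and samples left out. List counts without liver NP or NP+tau replicate 1 were added after seeing the data. Figures used matplotlib 3.10.9. The labels call the samples biological replicates.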

Additional observations from a re-analysis of the deposited data

Results flagged for a closer look

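Nr4a1 (1416505_at), a regulator on the lists and not a member, was lower in all 3 NP+tau livers than in any NP liver (-0.87, SE 0.23) and higher in all 3 NP+tau muscles than in any NP muscle (1.00, SE 0.35). The liver difference minus the muscle difference was -1.87 (SE 0.44, limma interaction, unadjusted p = 0.00121), which did not pass after adjustment over all probes (adjusted p = 0.542). That fit did not pair the tissues of a pup. No member of the glucose genes showed such opposite separation in both tissues.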

How the results depend on the processing

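With 3 pups a group, no member passed an adjusted p of 0.05 in 126 alternative values tested for 9 genes in liver and 65 for 5 genes in muscle (the means over probe sets of Pck1 and Pklr had no adjusted p), but the sign held throughout only for Pck1 and Irs2 in liver and Pklr and Tat in muscle. It turned for G6pc in liver without NP+tau replicate 2 (0.065, from -1.16 to 0.065 over all livers left out), for Fbp1 without NP replicate 1 (-0.081, up to 0.64) and without both replicates numbered 1 (-0.11), for Pklr without both (-0.0092), and for Tat without NP+tau replicate 1 (0.034, down to -0.43). Slc2a2 ranged from -0.23 to 0.12 and turned without NP replicate 2 (0.00336), NP replicate 3 (0.12), NP+tau replicate 1 (0.03) or NP+tau replicate 2 (0.05). Gys2 turned with array weights (-0.31), without NP replicate 1 (-0.60), NP+tau replicate 3 (-0.06) or both replicates numbered 1 (-0.59; up to 0.64 with a liver left out), and Pygl with the Xist covariate (-0.072) and without NP replicate 1 (-0.0098, up to 0.50). In muscle, Pck1 turned without NP or NP+tau replicate 2 (0.46 and 0.44, down to -0.77), Irs2 without NP replicate 1 (0.19, down to -0.64), and Pygl with the Xist covariate (-0.14) and without NP replicate 1 (-0.11), NP replicate 2 (-0.06) or NP+tau replicate 3 (-0.34, up to 0.40).

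Of all probes in liver, 0 passed in the fit as reported, 8 with array weights, 9449 with the Xist covariate, 9 without both replicates numbered 1, and 0 to 9 when each liver was left out (9 without NP+tau replicate 1, 1 without NP replicate 3). In muscle the count was 0 to 8 with a sample left out (8 without NP+tau replicate 1). Member probe sets at an unadjusted p under 0.05 in liver numbered 1 with array weights (Irs2), 1 with the Xist covariate (Tat), and 0 to 2 with a liver left out (the 2 of Pck1 without NP+tau replicate 3, 1 of Pklr without NP replicate 3). In muscle it was 1 without the filter (Pklr 1421259_at) and 0 otherwise. With the Xist covariate, the diet difference in liver rests largely on NP+tau replicate 1, the only NP+tau liver with high Xist. The cause of these counts was not tested. The replicate numbers did not pair the samples: correlations of deviations between same-numbered samples were 0.0157, -0.114 and 0.112 in liver and -0.214, -0.271 and 0.334 in muscle. With the replicate block, 0 member probe sets passed in either tissue, and Pck1 in liver kept its difference of -1.07 with an adjusted p of 0.744.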
